A study of Homo sapiens with 2 samples.

Results

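The interferon response and double-stranded RNA sensing genes are a set of 32 genes, out of 62700 in the gene table. They were picked by name, with earlier results of these data known. They were followed in 2 RNA-seq libraries of TCam-2 cells, an established human seminoma line, that carried a transduced FLAG-tagged DDX53 and are labelled as overexpressing it. DDX53 is a DEAD-box RNA helicase. RNA with a poly(A) tail was sequenced from strand-specific libraries. The promoter of the construct and whether the cells are 1 clone are not given in the sources used here. The study set these cells against TCam-2 cells with GFP-FLAG and untransduced cells, which are not analysed here. So the comparisons below are between genes and between the replicate libraries, and no value below is an effect of DDX53.

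Cells recognise double-stranded RNA as a sign of virus infection or of their own unedited repeat transcripts. RIGI, IFIH1 and TLR3 are the receptors that sense it and start signalling, through MAVS for the first pair, to the kinase TBK1 and the factors IRF3 and IRF7, which switch on type I interferon genes. Secreted interferon binds IFNAR1 and IFNAR2, and a complex that holds STAT2 and IRF9 then binds the interferon-stimulated response element before the effector genes. EIF2AK2 (the kinase PKR) and the OAS enzymes are switched on by double-stranded RNA directly, and ADAR edits it so that it is sensed less. Pluripotent and early germ-line cells are known for a weak interferon response and for a constant supply of a few interferon-stimulated proteins, such as the IFITM family.

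The libraries held 24137664 reads in genes in replicate 1 and 22198929 in replicate 2. Levels are given as CPM, the reads of a gene scaled to the reads in all genes of its library, with a 95% Wilson interval for counting error only. A gene with 0 reads could hold up to 3, so the limits were 0.124 and 0.135 CPM for replicates 1 and 2. Nothing in the labels says that the replicates came from separate cultures, so their spread may be technical. All 10 markers of germ cells and seminoma were above 1 CPM in both libraries, led by POU5F1 at 1906 ± 21.1 CPM (SD, n = 2). Of 7 markers of blood and immune cells, PTPRC, CD3E and HBB had no read and the list summed to 3.52 and 3.06 CPM. The 5 fibroblast markers summed to 20.2 and 25.3 CPM, most of it LUM and COL1A1, and the part of such cells in any result was not tested. In such bulk RNA, fewer cells with a transcript and less of it per cell cannot be told apart. DDX53 itself had 146 and 147 reads, or 6.05 and 6.62 CPM.

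A motif of the element that marks interferon-responsive promoters was looked up first, to show what the genes share in sequence. RefSeq promoter windows (GRCh38.p14, 250 bases before to 50 after a start) were available for 23 of the 32 genes. The motif, GAAA followed by 2 bases of any kind and a second GAAA on either strand, lay in at least 1 window of 14 of these genes, 60.9%. Among all 27305 genes with a window it lay in 4.38%, and among the 35116 windows in 3.57%. The match nearest the start is printed for the 14 genes, from the highest to the lowest mean CPM, so that genes with and without reads can be compared. Each line holds 30 bases read 5′ to 3′ on the strand that holds the motif in that form, and capitals mark the match, or 2 overlapping matches in BST2 and ISG15.
IFITM3 (chr11:320876-320905, minus strand): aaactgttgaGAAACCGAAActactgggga
EIF2AK2 (chr2:37156967-37156996, minus strand): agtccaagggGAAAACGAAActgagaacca
IFITM1 (chr11:314024-314053, plus strand): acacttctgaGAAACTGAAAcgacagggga
MX1 (chr21:41420559-41420588, plus strand): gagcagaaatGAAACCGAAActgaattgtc
IFIT1 (chr10:89392510-89392539, minus strand): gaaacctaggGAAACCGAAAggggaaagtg
OAS3 (chr12:112938452-112938481, plus strand): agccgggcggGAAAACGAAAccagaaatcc
BST2 (chr19:17405738-17405767, minus strand): tttctggGAAACTGAAACTGAAAacctaat
ISG15 (chr1:1013377-1013406, plus strand): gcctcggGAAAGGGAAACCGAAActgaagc
IFI6 (chr1:27672266-27672295, minus strand): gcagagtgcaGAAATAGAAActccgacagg
TLR3 (chr4:186069142-186069171, minus strand): cggcactctcGAAAGTGAAAgtaaagcttg
IFIH1 (chr2:162318686-162318715, minus strand): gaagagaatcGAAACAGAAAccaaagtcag
IFIT3 (chr10:89332468-89332497, minus strand): aaggggaaagGAAAGTGAAActgatggaac
IFI44 (chr1:78649761-78649790, minus strand): tcagagaaagGAAACTGAAActcagtgtgc
IFI44L (chr1:78620365-78620394, plus strand): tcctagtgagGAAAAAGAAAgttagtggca
Counted from the RefSeq start, the match of MX1 lies from base 12 to 21, and those of EIF2AK2, IFITM1 and TLR3 span the start. These starts can differ from those of the transcripts with most TPM, the level per transcript length. MX1-202, with 74.2% and 83.0% of the TPM of MX1, starts at 41426167, downstream of the printed match. No match was found in the window around that start. IFITM1-202, with 99.3% and 100% of the TPM of IFITM1, starts at 313853, upstream of the printed match. The motif was thus present both in IFITM3, the only gene with a match over 300 CPM, and in genes with no read. Levels of the 14 genes with a match ran from 0 to 328 CPM, with a median of 1.20 CPM, and 7 of them reached 1 CPM in both libraries. The 9 genes without a match were ADAR, IFNAR1, IRF1, IRF9, MAVS, OAS1, RIGI, STAT2 and TBK1. They ran from 0.0640 to 395 CPM, with a median of 37.3 CPM, and 5 of them reached 1 CPM in both libraries. In OAS1 and RIGI, 2 GAAA blocks lie 1 base apart in the 250 bases before the start, a spacing that the motif leaves out. So a gene without a match is not shown to lack the element. CGAS, IFIT2, IFITM2, IFNAR2, IRF3, IRF7, OAS2, OASL and STING1 had no window. A match is a description of these letters only.

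The 250 bases before the RefSeq start are shown in full for IFITM3, the gene with the highest TPM of the set, and for IFI44L, which had no read. Matches are in capitals and the direction is that of the gene.
IFITM3 (chr11:320861-321110, minus strand): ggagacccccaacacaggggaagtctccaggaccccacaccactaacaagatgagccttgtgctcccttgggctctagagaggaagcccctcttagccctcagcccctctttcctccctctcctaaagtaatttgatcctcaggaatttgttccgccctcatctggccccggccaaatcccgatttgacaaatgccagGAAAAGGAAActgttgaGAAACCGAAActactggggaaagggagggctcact
IFI44L (chr1:78620198-78620447, plus strand): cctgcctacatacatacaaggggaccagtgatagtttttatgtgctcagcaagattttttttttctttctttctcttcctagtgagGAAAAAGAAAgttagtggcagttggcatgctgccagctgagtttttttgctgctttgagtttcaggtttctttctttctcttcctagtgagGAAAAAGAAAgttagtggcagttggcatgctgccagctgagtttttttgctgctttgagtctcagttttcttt
Both promoters held 2 matches. In IFITM3 they lay from base -52 to -43 and from -35 to -26, counted from the RefSeq start. The annotated start of IFITM3-201, which held 99.7% and 99.5% of the TPM of IFITM3, is at 321050. Both matches lie downstream of that start, within the span of this transcript. Which start these cells use was not tested. In IFI44L the matches lay from -164 to -155 and from -73 to -64, and the 30 bases around them were identical. Of the alternatives, the same motif followed by C was found for 12 of the 23 genes against 0.952% of all genes, and was not in the windows of IFI44L and TLR3. A triple motif, with 3 GAAA at the same spacing, was found for 3, BST2, IFIH1 and ISG15, against 0.187% of all genes.

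Detection required that both libraries reach 1 CPM. By that measure 15 of the 32 genes (46.9%) were detected, where the background was 21.7% of all genes and 61.7% of the 19831 protein-coding genes. A further 10 genes had reads but stayed under 1 CPM throughout, 5 were without a read, and IRF1 and ISG15 lay on both sides of the threshold. The share was therefore below that of protein-coding genes in general. Both receptors and ADAR were detected, as were 2 of the 3 adaptors and kinases (MAVS and TBK1, not STING1) and 3 of the 5 transcription factors (IRF3, IRF7 and STAT2, not IRF1 and IRF9). Of the 8 sensors EIF2AK2 and OAS3 were detected, and of the 13 effectors 5 were. No test of a difference between roles was run.

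**Figure D1:**
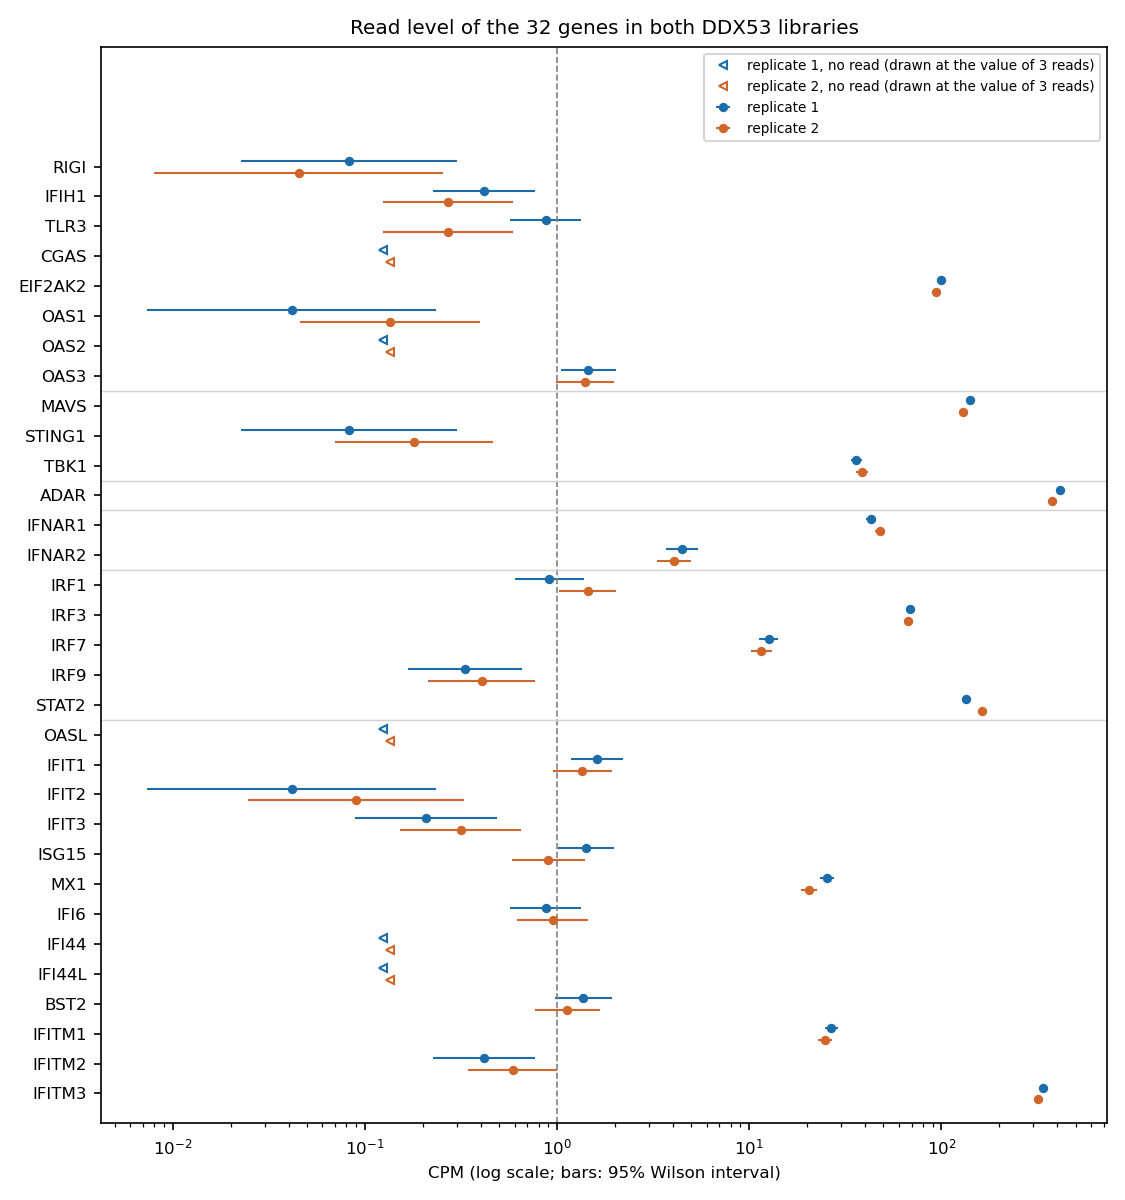
CPM of the 32 genes (log axis) in replicate 1 (blue) and replicate 2 (orange) with 95% Wilson intervals, grouped by role from sensors at the top to effectors at the bottom. Open triangles mark genes with no read, drawn at the value of 3 reads, and the dashed line is 1 CPM. The set separates into 11 genes above 10 CPM and a larger group near or below 1 CPM, with IFNAR2 between them at a mean of 4.26 CPM.

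The receptors of double-stranded RNA were at or near the limit of detection. RIGI (ENSG00000107201.11, chromosome 9, 32455705 to 32526324), the receptor of short and 5′-triphosphate RNA, had 2 reads in replicate 1 and 1 in replicate 2. IFIH1 (ENSG00000115267.10, chromosome 2, 162267079 to 162318703), the receptor of long double-stranded RNA known as MDA5, had 10 and 6 reads, or 0.414 CPM (interval 0.225 to 0.763) and 0.270 CPM (0.124 to 0.590). TLR3, which senses double-stranded RNA in endosomes, had 21 and 6 reads, or 0.870 CPM (0.569 to 1.33) and 0.270 CPM (0.124 to 0.590). Its Wilson intervals overlapped narrowly. The fold between the libraries was 0.331 (0.103 to 0.800) for TLR3, but RIGI, IFIH1 and TLR3 were too low to enter the test. At this depth these genes are low, not shown to be absent.

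The sensor of cytosolic DNA and its adaptor were as low. CGAS (ENSG00000164430.17, chromosome 6, 73413515 to 73452276), which makes the messenger cGAMP from DNA, had no read in either library. The exons of DDX43, on the opposite strand, cover 4.33% of its exons and carried 577 and 519 reads. STING1, the adaptor that binds cGAMP, had 2 and 4 reads, or 0.0829 CPM (0.0227 to 0.302) and 0.180 CPM (0.0701 to 0.463). Both genes were thus under 1 CPM in both libraries.

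OAS1, OAS2 and OAS3 make a short RNA messenger that sets off RNA decay, and OASL is a relative without that activity. OAS2 and OASL had no read, and OAS1 had 1 and 3 reads. OAS3 was the exception, with 35 and 31 reads, or 1.45 CPM (1.04 to 2.02) and 1.40 CPM (0.984 to 1.98). The TPM of its matched transcripts were only 0.138 and 0, in a retained-intron transcript. Its reads in replicate 1 exceeded the number that TPM times length predicts by 7.44-fold. Transcripts without a match in GENCODE were left out, and whether the TPM are too low for this reason was not tested. The level of OAS3 is therefore uncertain.

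EIF2AK2 stood apart from the other sensors. This kinase, which stops translation when it binds double-stranded RNA, had 2405 and 2082 reads, or 99.6 CPM (95.7 to 104) and 93.8 CPM (89.8 to 97.9). The mean of 96.7 ± 4.14 CPM (SD, n = 2) lay above 83.5% of the detected genes, with intervals that overlapped between the libraries. Its difference between the libraries did not pass the test (adjusted p of 0.25, edgeR's exact binomial test). EIF2AK2 lies on chromosome 2 from 37099210 to 37157065.

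The signalling genes downstream of the receptors were present. MAVS (ENSG00000088888.18, chromosome 20, 3846799 to 3876123), the mitochondrial adaptor of RIGI and IFIH1, had 3401 and 2864 reads, or 141 CPM (136 to 146) and 129 CPM (124 to 134). TBK1, the kinase that activates IRF3, had 36.0 CPM (33.7 to 38.5) and 38.6 CPM (36.1 to 41.3). IRF3, the factor held inactive in resting cells until that step, had 68.9 CPM (65.7 to 72.3) and 67.0 CPM (63.7 to 70.5). Exons of BCL2L12, on the other strand, cover 19.3% of those of IRF3 and had 1199 and 1080 reads, and whether the counting used strand is not given in the sources used here. The intervals of TBK1 and of IRF3 overlapped between the libraries and those of MAVS did not. IRF7, which amplifies the response and is itself interferon-inducible, was at 12.1 ± 0.749 CPM (SD, n = 2). IRF1 was at the threshold, with 22 and 32 reads, and its intervals overlapped.

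The components of the interferon receptor pathway were unequal. IFNAR1 had 1044 and 1064 reads, or 43.3 CPM (40.7 to 46.0) and 47.9 CPM (45.1 to 50.9). IFNAR2 had 108 and 90 reads, or 4.47 CPM (3.71 to 5.40) and 4.05 CPM (3.30 to 4.98). These counts are not per length, and for both genes the tables disagreed. IFNAR1 had 8.44 times the reads that its TPM predicts in replicate 1, and its matched transcripts summed to 0 TPM in replicate 2. Transcripts without a match in GENCODE were left out of that sum. Whether it is too low for this reason was not tested. IFNAR2 had 0.530 and 0.434 times the predicted number, and 44.2% of its exons also belong to AP000295.1, a gene on the same strand with 1 read in replicate 1 and none in replicate 2. The ratio of the receptor chains is therefore not given.

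STAT2 and IRF9, which act together at the response element, were far apart in level. STAT2 (ENSG00000170581.15, chromosome 12, 56341597 to 56360155) had 3256 and 3608 reads, or 135 CPM (130 to 140) and 163 CPM (157 to 168). IRF9 (ENSG00000213928.10, chromosome 14, 24161053 to 24166565), the DNA-binding part, had 8 and 9 reads, or 0.331 CPM (0.168 to 0.654) and 0.405 CPM (0.213 to 0.771). STAT2 was thus above 100 CPM in both libraries, and IRF9 under 1 CPM in both. AL136295.5, annotated as protein-coding on that strand, had 7 and 3 reads and covers 48.4% of the exons of IRF9. The matched transcripts of IRF9 were listed at 0.0528 and 0 TPM, so IRF9 was low by both tables.

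ADAR had the most reads of the set. This editing enzyme (ENSG00000160710.18, chromosome 1, 154582057 to 154628013) turns adenosine into inosine in double-stranded RNA. It had 9972 and 8381 reads, or 413 CPM (405 to 421) and 378 CPM (370 to 386). The mean of 395 ± 25.2 CPM (SD, n = 2) was above 97.0% of the detected genes. The libraries did not overlap, with replicate 1 the higher.

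The effectors are described in 3 groups by level, a division that was not tested. IFITM3 (ENSG00000142089.17, chromosome 11, 319669 to 327537), a membrane protein that hinders virus entry, had 8158 and 7047 reads, or 338 CPM (331 to 345) and 317 CPM (310 to 325). IFITM1, its neighbour, had 26.7 CPM (24.7 to 28.9) and 24.8 CPM (22.8 to 26.9). MX1, a GTPase that blocks virus replication, had 25.4 CPM (23.5 to 27.5) and 20.5 CPM (18.7 to 22.4). These 3 were the only effectors above 10 CPM in both libraries. A middle level near or under 1 CPM held IFIT1 (39 and 30 reads), ISG15 (34 and 20), BST2 (33 and 25), IFI6 (21 and 21) and IFITM2 (10 and 13). IFITM2 was the lowest of these, at 0.414 and 0.586 CPM. IFIT1 binds RNA that lacks the cap methylation of the host, ISG15 is a ubiquitin-like modifier, and BST2 tethers virus particles to the cell. At the lowest level IFIT3 had 5 and 7 reads, IFIT2 had 1 and 2, and IFI44, IFI44L and OASL had none.

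The IFITM genes are close copies of each other, so their counts can be split. IFITM1 had only 0.184 and 0.183 times the reads that its TPM predict, and 32.5% of its exons overlap exons of IFITM2 on the same strand. The read count of IFITM1 is therefore uncertain. IFITM3 had 0.618 and 0.607 times the predicted reads, within the 4-fold limit used to mark a gene as uncertain. Of 19 genes whose mean reached 1 CPM or 1 TPM, IFITM1 was the only one below that limit in both libraries, and OAS3 and IFNAR1 were above it.

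Levels between genes were compared on TPM, which is per transcript length. IFITM3 was first with 1011 and 964 TPM, a mean of 987 ± 32.6 TPM (SD, n = 2). IFITM1 followed with 254 and 236 TPM. Next came ADAR (75.9 and 68.6 TPM), IRF3 (71.2 and 69.4 TPM) and STAT2 (37.5 and 43.7 TPM). ADAR and IRF3 overlapped over the libraries, so their order is not resolved. EIF2AK2 (16.9 and 17.0 TPM), TBK1 (16.8 and 16.3 TPM) and MAVS (14.5 and 13.4 TPM) were close without overlap. IRF7, MX1 and IFNAR2 each overlapped the next between 8.12 and 11.7 TPM, and so did IFI6 and ISG15 between 2.56 and 3.73 TPM. BST2 was at 2.11 and 1.67 TPM and IFITM2 at a mean of 1.26 TPM, and the remaining 17 genes were under 1 TPM in at least 1 library.

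**Figure D2:**
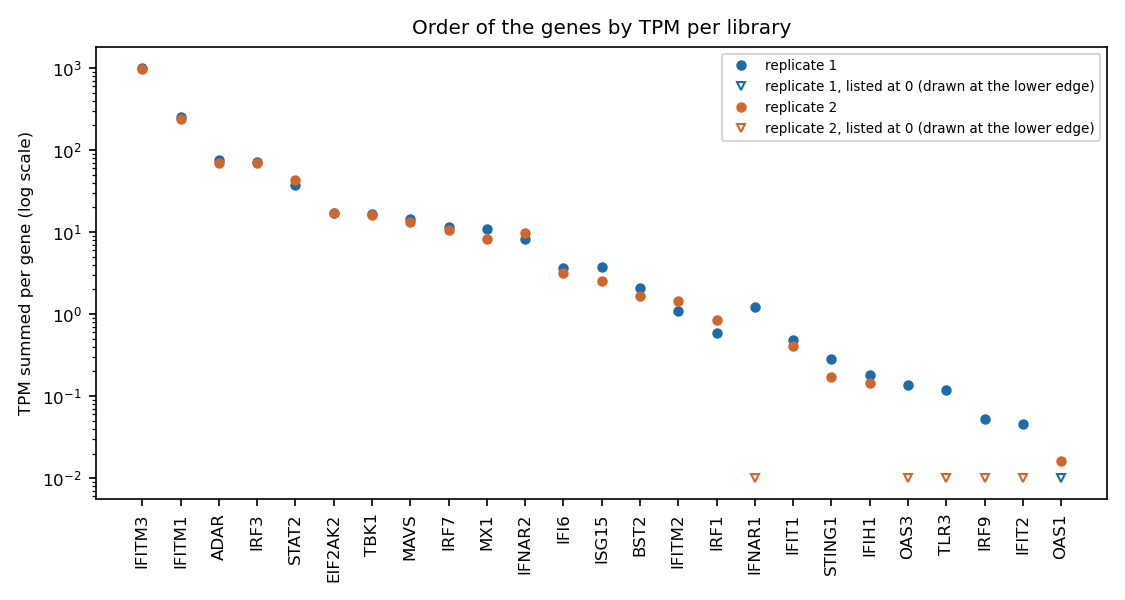
TPM summed per gene (log axis) in replicate 1 (blue) and replicate 2 (orange), ordered by the mean, for the 25 genes above 0 in either library. Open triangles at the lower edge mark a library in which the matched transcripts of the gene sum to 0. IFITM3 and IFITM1 lie above all others in both libraries, and 7 genes with such a sum of 0 in both libraries are not drawn.

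On CPM per kilobase of merged exons, the alternative per-length scale, IFITM3 remained first and ADAR moved to the second place. IFITM1 moved to number 4 with 24.7 and 22.9 CPM per kilobase, below STAT2 with 22.1 and 26.6, a pair that overlapped. IFNAR1 moved from number 17 to number 9 with 6.86 and 7.61 CPM per kilobase. Of the 25 genes above 0 on both scales, 11 moved by more than 1 place.

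The transcript table was used to see which forms made up these levels. It gave TPM per transcript, and transcripts without a match in GENCODE 29 were left out. Of the 15 genes that reached 1 TPM in both libraries, 0 had a different top transcript in the replicates. ADAR has a short form of 931 residues, made constantly, and a long form of 1226 residues, which is known to be interferon-inducible. Transcripts that encode 931 residues held 81.1% of its TPM in replicate 1 and 73.6% in replicate 2. The 3 transcripts that encode 1157, 1200 or 1226 residues held 18.6% and 25.9%, or 14.1 and 17.8 TPM, of which the form of 1226 residues (ADAR-202) had 7.69 and 10.9 TPM. Within the short form, ADAR-222 held 4.43% and 18.0% and ADAR-219 held 30.3% and 18.5%, so the split among transcripts with the same protein varied between the libraries.

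EIF2AK2 and STAT2 carried much of their TPM in transcripts that are not annotated as coding. In EIF2AK2 the transcript EIF2AK2-208, annotated for nonsense-mediated decay although it holds a reading frame of 551 residues, had 68.6% and 57.0%. EIF2AK2-201, the coding transcript of the same 551 residues, had 31.4% and 30.6%. In STAT2 the coding transcript of 851 residues had 60.4% in each library, and a processed transcript had 29.9% and 34.6%. IRF7 had 20.1% and 18.3% in transcripts annotated for decay. IRF3 was spread over 20 transcripts, with the leading one, which encodes 427 residues, at 41.7% and 48.6%. MAVS-202, with 540 residues, held 90.1% and 93.7% of the TPM of MAVS. TPM carry no depth, so these shares have no interval.

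In IFNAR2 the main transcript was not the one for the long receptor chain. IFNAR2-204, which encodes 331 residues, held 92.2% in replicate 1 and 77.8% in replicate 2. IFNAR2-202, which encodes the long chain of 515 residues that carries the signalling tail, was listed at 0 in replicate 1 and had 4.01% in replicate 2. A transcript of 229 residues was listed at 0 in replicate 1 and had 12.8% in replicate 2. With 8.12 and 9.76 TPM in the whole gene, and reads below the prediction as given above, these shares are uncertain.

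**Figure D3:**
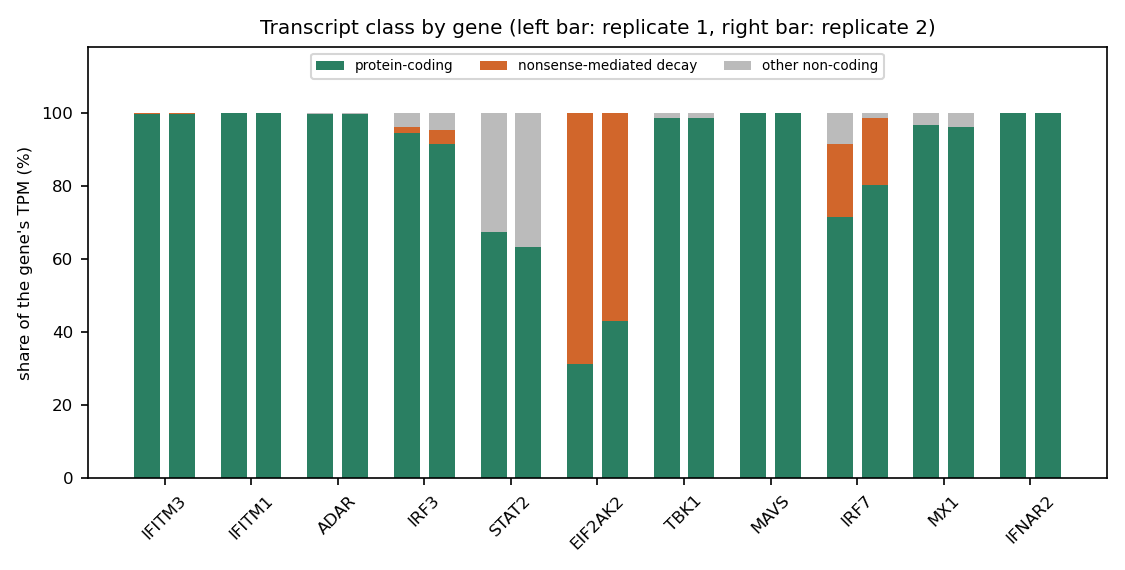
Share of each gene's TPM (vertical axis, percent) in transcripts annotated as protein-coding (green), for nonsense-mediated decay (orange) and as other non-coding (grey), for the 11 genes of at least 5 TPM in both libraries. The left bar of a pair is replicate 1 and the right bar replicate 2. EIF2AK2 is the only one with more than 50% in decay transcripts, and STAT2 the one with the largest other non-coding share.

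The replicates were compared next, to show how far these genes vary without a change of condition. The difference is given as a fold, replicate 2 over replicate 1, with a 95% exact interval for counting error. It was tested with edgeR's exact binomial test over all 15299 genes that passed a filter on low counts, with Benjamini-Hochberg adjustment and a threshold of 0.05. Over these genes the libraries differed by 4.77 times the counting variance, and the test compares 2 libraries, not conditions. Of the 32 genes 18 were tested and 5 passed, 27.8%, where the background was 13.1% of all genes. Among genes of at least 10 CPM in both libraries, where the test has more reads, 5 of 11 passed, 45.5%, against 18.9% of all 9233 such genes (9.67% higher and 9.22% lower in replicate 2). This subset was chosen after the data were seen.

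STAT2 was higher in replicate 2, by 1.21-fold (interval 1.16 to 1.27; adjusted p of 2.6e-13, edgeR's exact binomial test). That direction was called for 6.78% of all genes. The other 4 were lower in replicate 2, a direction called for 6.35% of all genes. MX1 had the largest change of the 4, with 0.810 times its level in replicate 1 (0.716 to 0.916; adjusted p of 0.0084). ADAR had 0.919 times (0.892 to 0.946; adjusted p of 5.5e-07), MAVS 0.921 times (0.876 to 0.968; adjusted p of 0.013) and IFITM3 0.944 times (0.915 to 0.975; adjusted p of 0.0061), by the same test. Between the same libraries 5 of the 10 germ cell and seminoma markers passed the test (50%; 3 higher and 2 lower in replicate 2). All 10 were at 10 CPM or more in both libraries. At that level 18.9% of all 9233 genes passed, and 5 of 11 listed genes (45.5%). The fibroblast marker LUM was higher in replicate 2, by 1.41-fold (1.18 to 1.69; adjusted p of 0.0017, edgeR's exact binomial test). LUM was the 1 gene that passed of 3 tested in its list, where the background was 13.1% of all genes. The part of these differences in those of the 5 genes was not tested.

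Of 17 genes whose mean reached 1 CPM, 13 were lower in replicate 2 and 4 higher. Over all 13898 such genes 7255 were lower and 6643 higher. The median log2 difference, log2((CPM + 1) in replicate 2 over (CPM + 1) in replicate 1), was -0.10 for the 17 genes and -0.0077 for all. ISG15, with 0.650 times (0.351 to 1.15), and IRF1, with 1.58 times (0.896 to 2.87), had wider differences than the 5 called genes but too few reads to resolve them. Since each side is 1 library, these differences have no replicate check.

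**Figure D4:**
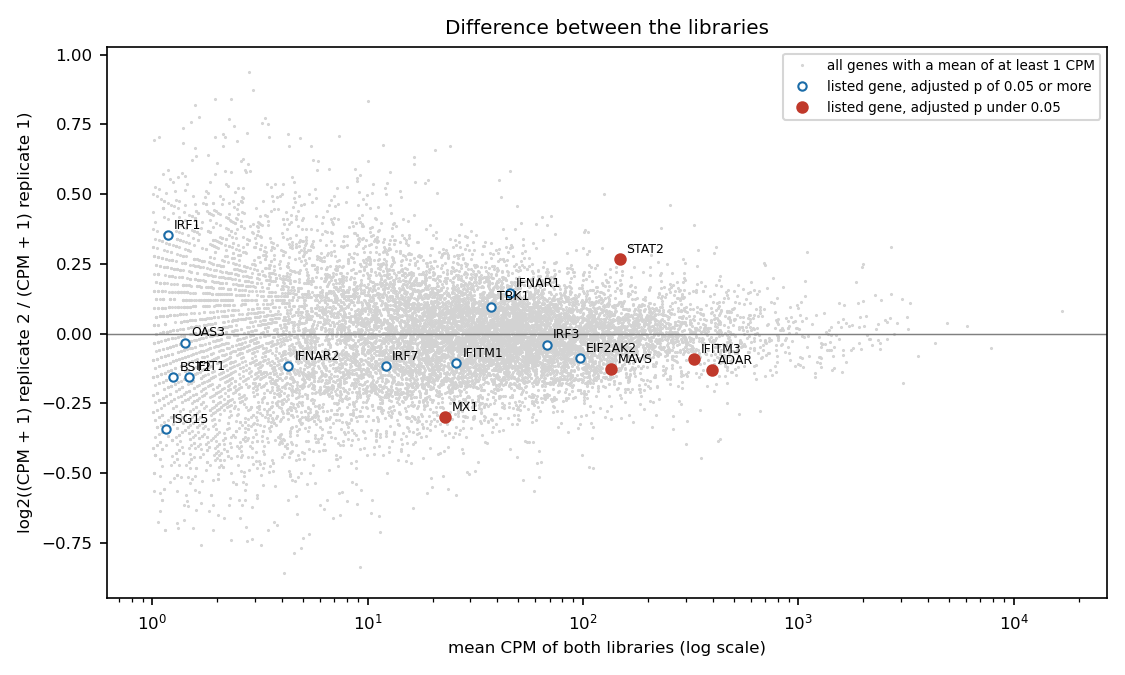
Log2 difference between the libraries (vertical axis, replicate 2 against replicate 1, pseudocount of 1 CPM) against the mean CPM (log axis) for every gene whose mean reached 1 CPM (grey) and the 17 listed genes among them. Filled red points passed the exact binomial test. STAT2 lies above 0 and MX1, ADAR, MAVS and IFITM3 below it.

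Other genes of the pathway were taken from 6 lists of 129 genes in all, of which 76 were detected. No interferon gene was. Of 21 ligand genes, 18 had no read in either library, among them IFNB1, IFNG and all 13 IFNA genes listed. IFNE had 2 reads in each library, and IFNK and IFNL3 had 1 read in replicate 2 only. The IFNA genes are near-identical, so reads that fit several of them could be missing from the count.

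Most other receptors, kinases and STAT genes were detected. JAK1 was at 67.5 ± 0.0929 CPM and TYK2 at 41.5 ± 0.931 CPM (SD, n = 2 each), and 8 of 9 genes of the receptor, kinase and STAT list were detected. By TPM the highest genes of that list included IFNGR2 (41.0 ± 2.51 TPM) and IL10RB (16.0 ± 1.36 TPM; SD, n = 2 each). IL10RB, of whose exons AP000295.1 covers 38.1%, had only 6 reads in each library, so its tables disagree. Of 25 other sensing and signalling genes 16 were detected, led by SAMHD1 (73.8 ± 10.4 TPM), IFI16 (39.8 ± 1.07 TPM) and ZCCHC3 (39.2 ± 0.0319 TPM). DHX58, the third RIGI-like receptor, had 6 and 11 reads, under 1 CPM in both libraries like RIGI and IFIH1.

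Most double-stranded RNA binding proteins and negative regulators were detected. Of 16 binding proteins 14 were detected, all 14 at 10 CPM or more in both libraries, and ILF2 (554 ± 26.4 TPM) and DHX9 (209 ± 5.77 TPM; SD, n = 2 each) were among the highest. DICER1, which cuts double-stranded RNA into small RNAs, was at 53.9 ± 6.21 CPM (SD, n = 2). All 10 negative regulators were detected, led by TRIM28 (907 ± 25.1 TPM), PTPN2 (56.0 ± 3.14 TPM) and PIAS4 (32.8 ± 1.15 TPM). USP18, which removes ISG15 and blocks the receptor, was at 8.87 ± 0.708 CPM (SD, n = 2), although it is itself an interferon-stimulated gene.

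The other interferon-stimulated genes were mixed in level. Of 48, 28 were detected (58.3%), 15 had reads but stayed under 1 CPM in both libraries and 5 had no read. The share detected was 38.5% for the 13 effectors and 61.7% for all protein-coding genes. PLSCR1 (29.4 ± 1.80 TPM), IFI27L1 (25.2 ± 1.78 TPM) and NMI (21.4 ± 0.0590 TPM; SD, n = 2 each) were the highest. RSAD2, the antiviral enzyme viperin, had 4 reads and 1 read.

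Between the libraries 12 of 83 tested pathway genes passed the exact binomial test, 14.5%, close to the background of 13.1%. SAMHD1, which depletes nucleotides, had the smallest p, with 0.793 times its level in replicate 1 (interval 0.764 to 0.822; adjusted p of 3.5e-34, edgeR's exact binomial test). RNF125, ZC3HAV1, DICER1, IFIT5 and TRIM28 were also lower, from 0.723 times in RNF125 to 0.947 times in TRIM28. PRKRA, STAT3 and ILF2 were higher, from 1.19-fold in PRKRA to 1.09-fold in ILF2. LGALS3BP, named here after its value was seen, was also higher, at 1.33-fold. IFIT5 (adjusted p of 0.035) did not pass without the filter on low counts (adjusted p of 0.056, the same test).

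**Figure D5:**
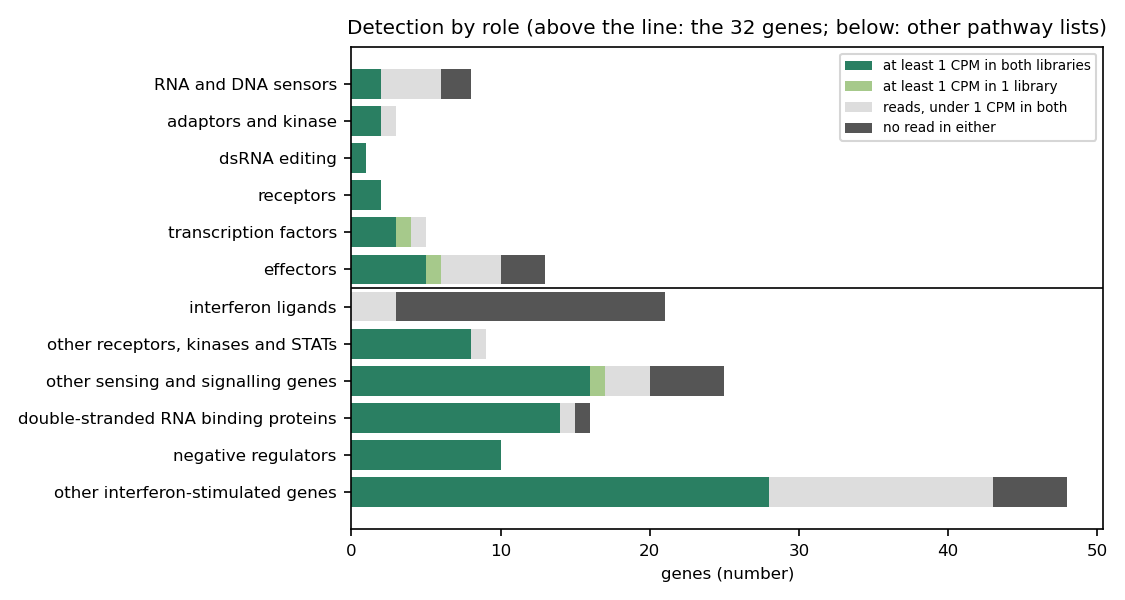
Number of genes (horizontal axis) by role that had at least 1 CPM in both libraries (dark green), in 1 library (light green), under 1 CPM with reads (light grey) or no read (dark grey). Roles of the 32 genes are above the line and the other lists below it. The ligands are the only list with 0 genes detected, and the binding proteins and negative regulators are nearly or fully detected.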

How the data were processed

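The deposited transcript table holds TPM, made by the authors with salmon per the name of the table. The deposited gene table is named CPM but holds a signal: the columns sum to 24607396 and 24842414, and each is a read count over a library factor. Every value above 0 was a whole multiple of 1 read (100% within 0.001), and whole reads were recovered. Trim Galore 0.6.10, STAR 2.7.11a, Salmon 1.10.2, DESeq2 and GRCh38 are named per the submitters' processing notes, without their roles. The annotation and the counting are not given in the sources used here. The header lacks a name for the identifier column, so the first library name was read as the first value column.

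CPM was computed over all reads in genes. Symbols came from a table of gene names, in which each of the 32 genes matched 1 identifier (RIGI, CGAS and STING1 under those names). Transcripts were summed per gene through GENCODE 29 (GRCh38), which held 201667 of 251955 transcripts and 94.8% of TPM in each library. Coordinates are those of GENCODE 29, and promoters those of RefSeq on GRCh38.p14. Reads were compared with TPM times transcript length, both with 0.1 CPM added, at a 4-fold limit.

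The libraries were compared with edgeR 4.0.16 (binomTest on recovered reads, TMM, filterByExpr, Benjamini-Hochberg over all genes). The test was tried on simulated libraries whose only noise was counting noise. The libraries here differed by 4.77 times the counting variance, so that trial does not show how the test behaves on them. DESeq2 1.42.0 gave alternative size factors only. Alternatives covered scaling, filter, thresholds, pseudocount, measure, motif and each library alone. The members, the lists and the rule for the named genes were chosen with earlier results of these data known. The rule was all 32 genes, ligands with a read, the 3 genes with the highest TPM of each other list, up to 10 listed genes called between the libraries by adjusted p, and genes fixed by name, among them JAK1, TYK2, DHX58, RSAD2, USP18 and DICER1. Some genes that the rule names are not reported here. No column of values was left unused.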

Additional observations from a re-analysis of the deposited data

How the results depend on the processing

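No paired analysis was possible because there is only 1 group of samples. With 1 library left out, 16 of the 32 genes (either library) and 76 to 77 of the 129 other pathway genes reached 1 CPM, and the summed level of the 32 genes ranged from 1304 to 1354 CPM around 1329 ± 35.3 CPM (SD, n = 2). The comparison between the libraries has no such value. At 0.1 CPM, 23 of the 32 genes were detected in place of 15, the 8 added being IFIT3, IRF9, IFIH1, IFITM2, TLR3, IFI6, IRF1 and ISG15. The triple motif was found in 3 promoters in place of 14, since it is longer by construction. The members called between the libraries did not change in number: 5 of the 32 genes differed between the libraries under each of the 4 scaling and filter alternatives, and their directions held. Among the other pathway genes reported, IFIT5 and LGALS3BP lost the call without the filter on low counts. LGALS3BP went from an adjusted p of 0.042 to 0.071 without the filter (edgeR's exact binomial test). The median log2 difference of the set stayed below 0, at -0.016 without a filter and -0.11 with a pseudocount of 0.1. Depth limits the sensors: for RIGI, with 2 reads and 1 read, the intervals span 0.0227 to 0.302 CPM and 0.00795 to 0.255 CPM.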
